A study of Mus musculus with 9 samples.

Results

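The genes described here make cells sense foreign nucleic acid, answer interferon and show antigen to T cells. They were 37 genes chosen by name, among 21889 genes whose ends were tested in the same way. Of the 37, 35 are listed as protein coding, and Mx1 and Mx2 are listed as transcribed pseudogenes in the gene table and were kept. Mb21d1 is the gene for cGAS (symbol Cgas in the table), and Tmem173 is the gene for STING (symbol Sting1).

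Open chromatin had been mapped with paired-end ATAC-seq, an assay that inserts adapters wherever the transposase Tn5 can reach the DNA, in cell lines grown out of primary mouse osteosarcomas, which are bone tumours. The line called R172H here is labelled p53R172H/-, and the line called R245W is labelled p53R245W/-: each carries 1 mutant p53 allele over a null allele. The p53-null line is labelled p53-/-, so all 3 lines lack wild-type p53. Each genotype was 1 cell line with 3 libraries, all grown in DMEM with serum and antibiotics, and no interferon or other agent is named in the labels. A difference between genotypes is therefore also a difference between individual tumour lines. Separate cultures are not stated for the libraries of a line, so p-values rest on a spread between libraries that may be only technical.

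As background, double-stranded RNA in the cytoplasm is sensed by RIG-I and MDA5, which act through MAVS, and stray DNA is sensed by cGAS, which acts through STING. Both routes meet at the kinase TBK1 and the factors IRF3 and IRF7, which switch on interferon genes. Secreted type I interferon binds the receptor IFNAR, and a complex that holds STAT2 and IRF9 then binds interferon-stimulated response elements in the promoters of antiviral genes. Interferon also raises class I antigen presentation, and tumour cells are known to lose or gain parts of this programme.

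Promoter sequence was taken from RefSeq (GRCm38.p6, the build of the deposited lists), in windows from 250 bases before to 50 after each listed start. The 37 genes had 36 windows for 31 genes, and Tmem173, Tlr4, Mx1, Mx2, Tap2 and Nlrc5 had no entry. The core of the interferon-stimulated response element (ISRE) was searched on both strands as GAAA, any 2 bases, then GAAA. It was found in 10 of the 31 genes (B2m, Bst2, Ddx58, Ifih1, Ifit1, Ifit3, Isg15, Oas1a, Rsad2 and Stat2), and in 3.44% of all 32851 windows. The stretches before the start of 6 of these genes are shown because they are the antiviral effectors among the 10, including Ifit3, which had no end peak in any library. Capitals mark each ISRE match, matches can overlap, and a match on the other strand reads TTTC, any 2 bases, then TTTC.
Oas1a, chr5:120907526-120907570, minus strand: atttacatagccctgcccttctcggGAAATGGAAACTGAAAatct
Isg15, chr4:156200850-156200921, minus strand: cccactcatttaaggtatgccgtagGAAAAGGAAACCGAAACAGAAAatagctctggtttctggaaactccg
Ifit1, chr19:34640760-34640838, plus strand: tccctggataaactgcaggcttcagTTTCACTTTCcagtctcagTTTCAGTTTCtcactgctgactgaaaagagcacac
Rsad2, chr12:26456538-26456597, minus strand: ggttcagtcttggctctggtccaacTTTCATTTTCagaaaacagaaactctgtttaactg
Bst2, chr8:71537562-71537627, minus strand: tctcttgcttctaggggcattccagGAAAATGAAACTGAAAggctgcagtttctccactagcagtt
Ifit3, chr19:34583348-34583441, plus strand: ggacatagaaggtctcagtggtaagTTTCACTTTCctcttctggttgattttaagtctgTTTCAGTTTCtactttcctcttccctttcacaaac
Isg15 held 3 overlapping matches, Oas1a and Bst2 held 2 overlapping matches each, Ifit1 and Ifit3 held 2 separate ones and Rsad2 held 1. Counting the first base of the transcript as position 0, the matches lay between positions -20 and -5 in Oas1a, and between -78 and -57 in Isg15.

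The gamma-activated site, an element of promoters that answer interferon gamma, was searched as TTCNNNGAA, where N is any base. It was found in the windows of 8 of the 31 genes: Bst2, Ifit2, Ifnar1, Ifnar2, Irf1, Irf8, Oas1a and Psmb8. Of all windows, 8.3% held it. The kappaB site, which NF-kappaB binds, was searched as GGGA, any 4 bases, then CC on both strands and was found for 11 genes, with 20.7% of all windows holding it. These matches are letters in a window and were not tested as binding sites.

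Most of these genes had an open end in every line, and the labels name no added stimulus. A gene end was called in a library when a peak overlapped either end of the gene, widened by 1000 bp on each side. Of the 37 genes, 31 (83.8%) had a called end in all 9 libraries, against 55% of all genes. Strength was measured as the percentile of a peak's -log10 q among all peaks of its library, taking the strongest peak at the gene's ends, so 100 is the strongest peak of a library and 0 marks no peak. By this measure 16 of the 37 genes (43.2%) lay above the 80th percentile in all 9 libraries, against 34.7% of all genes. Among genes with a called end in all 9 libraries the shares were 51.6% of members and 63.2% of all such genes. Ifnb1, which encodes interferon beta, and Ifit3, an antiviral effector, had no end peak in any library, while 31.3% of all genes had none.

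**Figure D1:**
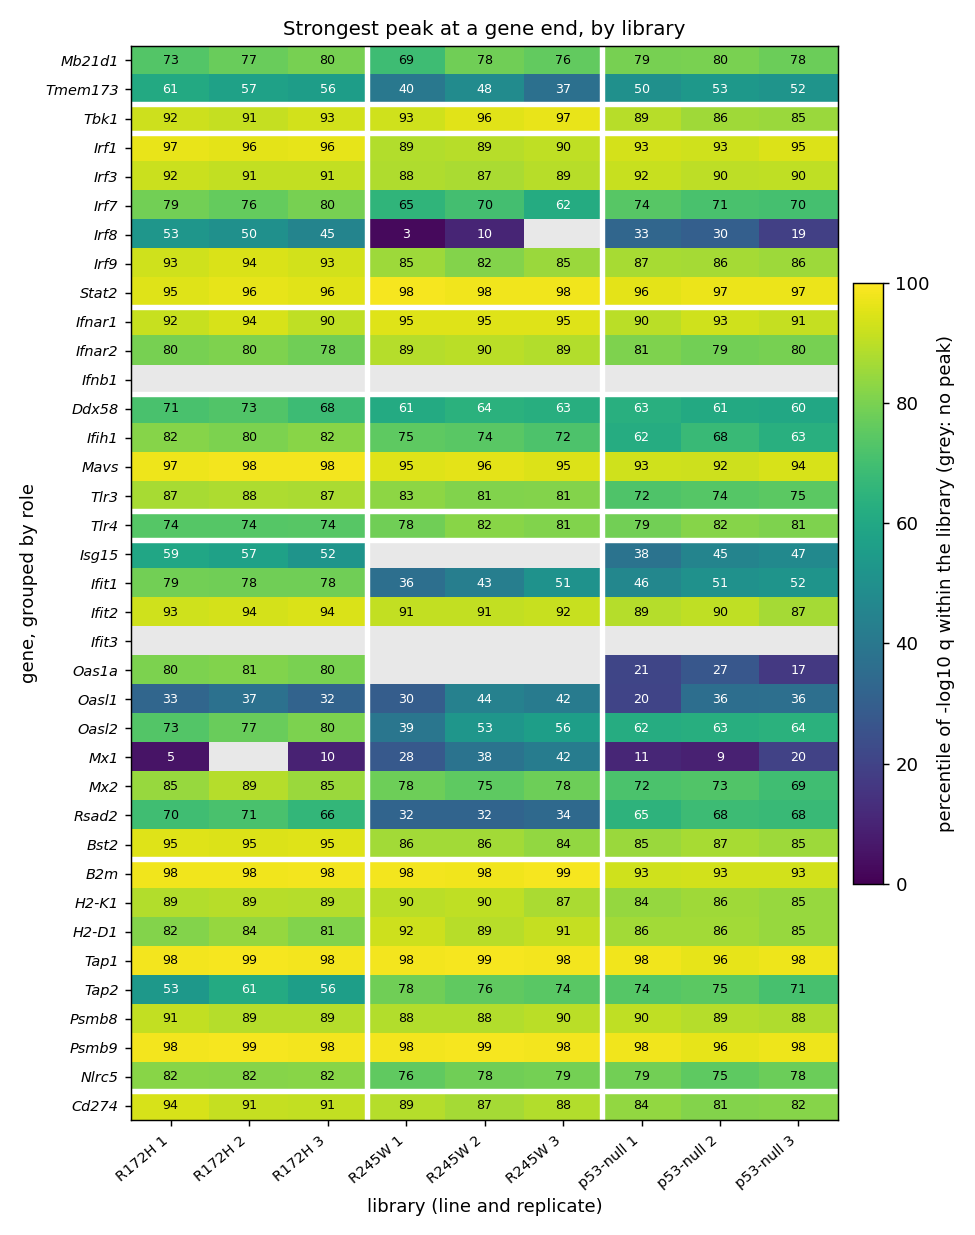
Percentile of -log10 q of the strongest peak at either end of each of the 37 genes (rows, grouped by role) in each of the 9 libraries (columns). Yellow is strong, dark blue is weak and grey marks no peak. Antigen presentation genes are mostly strong in every column, while Isg15 and Oas1a are grey in all 3 R245W libraries.

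Where the files place a peak relative to a start, it sat close to it. For 29 genes with both a listed start and a peak, the median summit lay within 250 bp of a start in 25, and the median absolute distance was 80 bp. Cd274 was 1 of the exceptions: its peak lay at the upstream edge of the gene's span, a median of 5528 bp before the listed start.

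The 3 lines were compared with an exact permutation test over all 280 ways to divide 9 libraries into 3 groups of 3, with Benjamini-Hochberg adjustment over all 21889 genes and a threshold of 0.05. The lists differed in length, from 65199 peaks in the null line to 79424 in the R245W line, and ranks from lists of different lengths are not comparable. The test and all differences in strength between lines therefore used lists shortened to their 65199 strongest peaks. The levels given per library, the gene ends called in 1 line only and the line-specific regions are from the full lists. Of the 37 genes, 22 (59.5%) passed, against 30.9% of all genes. Among genes with a called end in all 9 libraries, 18 of 31 members (58.1%) passed against 49.5%, a smaller gap. The smallest adjusted p this design gave was 0.0198, and 16 members reached it. A gene with a peak in 1 line and none in the other lines cannot pass this permutation test (adjusted p = 0.0763), and 3 libraries against 3 cannot go below p = 0.1, so pairs of lines are described by whether their libraries overlapped.

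The most frequent orders among the members were R172H above both other lines and R245W below both. On lists of equal length the R172H line lay above both other lines, with no overlap of libraries, for 15 of the 37 genes (40.5%), against 17.1% of all genes. The R245W line lay below both others for 13 genes (35.1%), against 9.53% of all genes. Among genes open in all 9 libraries the shares were 13 of 31 (41.9%) against 25.4%, and 10 of 31 (32.3%) against 16.6%. The p53-null line was highest for 2 genes, Mb21d1 and Tlr4 (5.41%, against 6.75% of all genes), and lowest for 8 (21.6%, against 14.7%). The low R245W values were uneven over the roles. Null exceeded R245W for 5 of 6 transcription factors and 6 of 11 antiviral effectors (15.5% of all genes), and the reverse held for 1 and 0. R245W exceeded null for 4 of 8 antigen presentation genes and 3 of 4 RNA sensors (23.9% of all genes), and the reverse held for 0 and 1. These counts describe the chosen genes and are not a test of the list.

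Pair by pair, all 3 libraries of the R172H line exceeded all 3 of the null line for 20 of the 37 genes, with 27.9% for all genes, and the reverse held for 7 genes, with 14.4% for all genes. The R172H line exceeded the R245W line for 20 genes (25% of all genes) and the reverse held for 7 genes (18.2% of all genes). The R245W line exceeded the null line for 12 genes (23.9% of all genes), and the null line exceeded it for 15 (15.5% of all genes). On the full lists the split was 23 to 3 for R172H and null (33.8% and 11.4% of all genes). It was 20 to 7 for R172H and R245W (23.1% and 20.8%). For R245W and null it was 16 to 10 (33% and 9.63%), so the direction of the last pair turned with list length. Percentiles were also taken within each chromosome of the full lists, with the pairs in the same order. The splits were 22 to 3 (32.9% and 9.14%), 21 to 7 (20.2% and 18.5%) and 13 to 8 (31.7% and 7.57%).

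Restricting the count to genes with a called end in all 9 libraries left 31 members. R172H exceeded null for 18 of them (43.3% of all such genes) and null exceeded R172H for 6 (22.2%). R172H exceeded R245W for 17 (39.2%) and R245W exceeded R172H for 6 (26.3%). R245W exceeded null for 12 (35.9%) and null exceeded R245W for 12 (25.1%). The median difference from R245W to R172H was 4.06 percentile points over these members, against 0.674 over all such genes. The median R172H minus null difference was 2.7 against 1.13, and that of R245W minus null was -1.17 against 0.575.

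**Figure D2:**
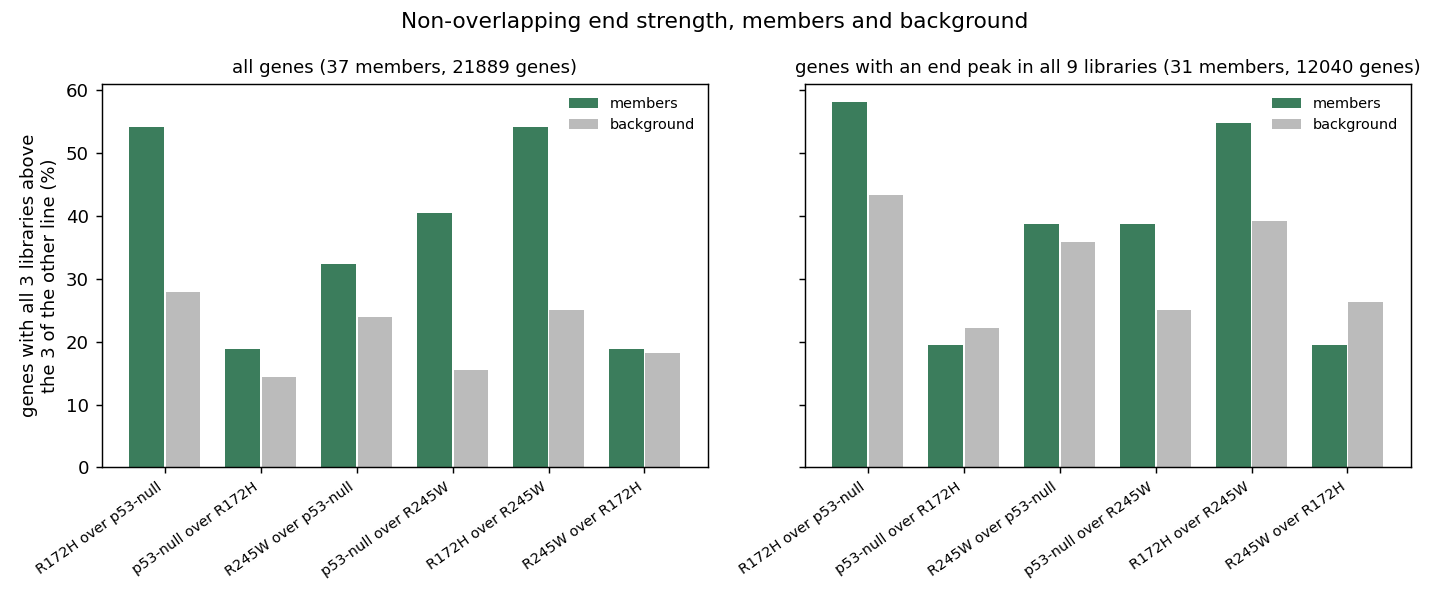
Share of genes (vertical axis, %) whose 3 libraries in 1 line all exceeded the 3 libraries of the other, for each pair and direction (horizontal axis). Green bars are the interferon, sensing and presentation genes and grey bars the background, over all genes (left) and over genes with an end peak in all 9 libraries (right). The 20 members with R172H above R245W stand over a background of 25%, and 7 with R245W above R172H stand over 18.2%.

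A called end in all 3 libraries of 1 line and in none of another was rare. It was found for 2 genes, Oas1a and Isg15, both called in R172H and in null and not in R245W. On lists of equal length Irf8 joined them, which made 3 genes, and Mx1 was called in null and in R245W and not in R172H. Over all genes the share was 1.61% for R172H over R245W and 0.544% for null over R245W. On the full lists no member had such a difference for R172H over null (3.19% of all genes), null over R172H (1.27%), R245W over null (3.3%) or R245W over R172H (2.57%).

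Oas1a, a 2'-5'-oligoadenylate synthetase that activates RNase L against viral RNA, showed the widest separation of any member on lists of equal length. Its gene lies on chromosome 5 from 120896256 to 120907544 and a peak covered its start. The strength was 80.2, 81.2 and 79.8 in the R172H libraries, 21.0, 27.1 and 16.7 in the null libraries, and no peak was called in any R245W library. The 3 lines did not overlap (exact permutation test over 280 partitions, adjusted p = 0.0198). On lists of equal length R172H exceeded null by 56.9 percentile points and R245W by 78.0.

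The wider Oas1 cluster differed in the same way. A second peak 8076 bp beyond the far end of Oas1a, at the start of the neighbouring gene Oas1g, was called only in R172H, at 73.7, 77.8 and 75.4. From 120837608 to 120937657 on chromosome 5, 100 kb that hold Oas1f, Oas1h, Oas1g, Oas1a and Oas1d, no R245W library had a peak. In that interval the R172H libraries had 4, 5 and 6 peaks, and the null libraries had 2, 4 and 2. Just outside it, all 9 libraries had peaks beside and inside the neighbouring gene Rph3a, and the one inside was at 62.0, 66.5 and 62.2 in R245W. Peak lists cannot tell DNA that is missing from DNA that is closed, and the Oas1 genes are similar copies. How reads that match several copies were placed is not given in the sources used here, and its part in these values was not tested.

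**Figure D3:**
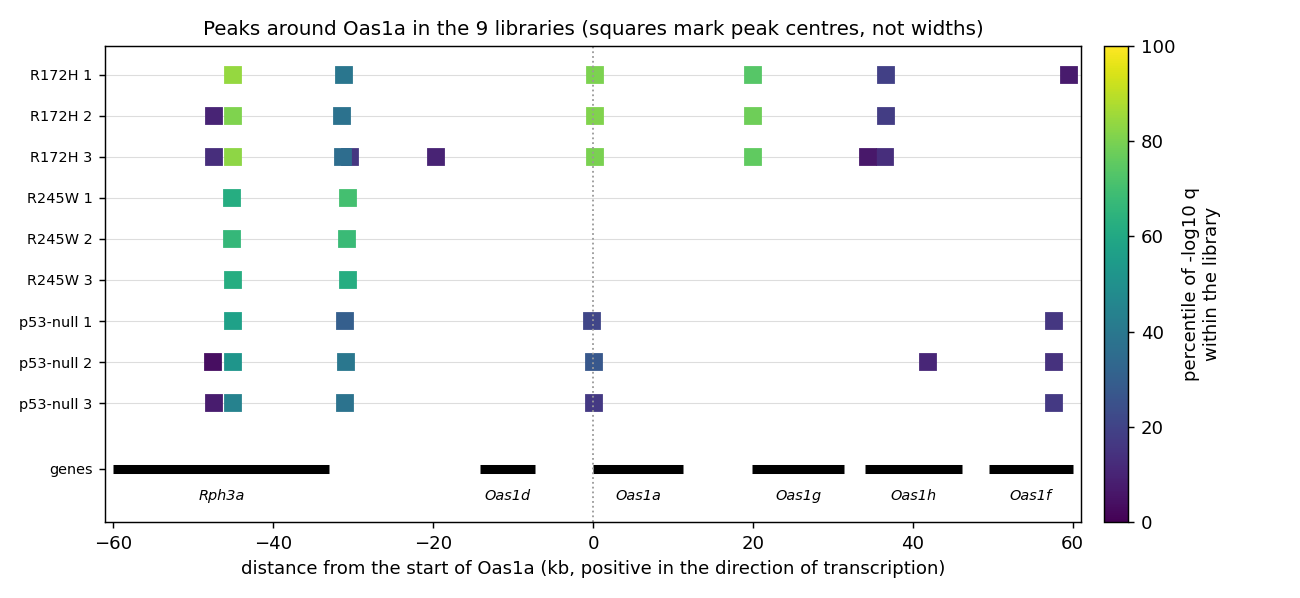
Peaks in the 9 libraries (rows) by distance from the start of Oas1a (horizontal axis, kb), coloured by percentile of -log10 q, with gene spans below. The squares mark peak centres and not widths. The R245W rows hold no peak between the Oas1d and Oas1f genes, the null rows hold weak ones and the R172H rows hold a peak near 80 at the Oas1a start.

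Isg15 encodes a ubiquitin-like protein that is attached to others after interferon. Its gene lies on chromosome 4 from 156199424 to 156200818. Its start peak was at 59.3, 57.1 and 51.9 in R172H and at 38.0, 45.1 and 47.4 in null, and it was not called in R245W. The null and R172H libraries did not overlap on the full lists but did on lists of equal length (adjusted p = 0.0306, exact permutation test). The neighbourhood was otherwise open in R245W: a peak that began 2568 to 2607 bp beyond the start, at the Agrn gene, was at 99.8, 99.8 and 99.7 there and at 96.2, 96.2 and 95.4 in R172H. With the end window widened to 2000 bp, that neighbouring peak replaced the Isg15 peak and the R172H minus R245W difference became -4.3.

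Ifit1, an effector that binds foreign RNA, was high in 1 line. It was at 78.9, 78.3 and 78.3 in R172H, at 36.5, 42.6 and 51.1 in R245W, and at 46.4, 50.6 and 51.6 in null. The R172H libraries lay above the rest (adjusted p = 0.0198, exact permutation test), by 26.6 points over null and 42.9 over R245W. On the full lists R245W and null overlapped. Ifit2, in the same cluster on chromosome 19, was strong in every line, with 92.6, 93.6 and 94.3 in R172H, 90.9, 91.0 and 91.7 in R245W, and 88.7, 90.3 and 86.6 in null (adjusted p = 0.0462, exact permutation test). Without any 1 of 8 libraries, all but null replicate 2, Ifit2 did not pass (adjusted p from 0.0252 to 0.111 over the 9 permutation tests), and with percentiles within the chromosome its adjusted p was 0.165. Ifit3 lies between them and had no end peak in any library, although its window held 2 ISRE matches. Within 20 kb of its span, R172H libraries had 3, 2 and 3 peaks, R245W libraries 1 each, and null libraries 0, 1 and 0. The Ifit genes are also similar copies, with the same limit on read placement.

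Oasl2, an OAS-like protein, followed the order R172H, null, R245W. It was at 73.4, 77.1 and 80.2 in R172H, at 62.0, 62.6 and 64.0 in null and at 39.1, 52.6 and 55.9 in R245W. The lines did not overlap (adjusted p = 0.0198, exact permutation test), and R172H exceeded R245W by 34.2 points. Its neighbour Oasl1 had a weak start peak in all 9 libraries, from 20.5 to 43.8, and its lines overlapped in every pair.

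Rsad2 encodes viperin, an enzyme that makes a nucleotide that stops viral polymerases. It was at 69.5, 71.4 and 66.3 in R172H, at 64.8, 68.4 and 67.7 in null, and at 32.4, 32.1 and 34.1 in R245W. The R245W libraries lay 44.7 points below R172H and 46.2 below null. R172H and null overlapped, and the adjusted p was 0.0535 (exact permutation test), above the threshold. It passed on the full lists (adjusted p = 0.0427, permutation test), without R172H replicate 2 (0.0472) and without null replicate 1 (0.0356).

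Bst2 encodes tetherin, which holds budding virus at the cell surface. It was at 95.2, 94.6 and 95.1 in R172H, against 86.3, 86.3 and 83.6 in R245W and 84.8, 87.1 and 85.2 in null. R172H stood apart by 8.74 points from null and 11.6 from R245W (adjusted p = 0.0198, exact permutation test). R245W and null overlapped on the full lists, and the adjusted p was then 0.0676 (permutation test).

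Mx1 and Mx2 belong to a family of genes for GTPases that trap viral particles, but both are listed here as transcribed pseudogenes. The table gives no strand for either. Mx2 was at 84.7, 88.7 and 85.1 in R172H, at 77.9, 75.0 and 78.1 in R245W, and at 71.5, 72.8 and 69.2 in null (adjusted p = 0.0462, exact permutation test). Its R172H libraries were the highest, but without any 1 of 7 libraries, all but R245W replicate 2 and null replicate 2, it did not pass (adjusted p from 0.0348 to 0.0803 over the 9 permutation tests). Mx1 went the other way: 2 regions at its ends had peaks in every R245W and null library and none in the R172H line. The stronger of them was at 48.1, 42.4 and 42.1 in R245W and 42.5, 37.3 and 45.5 in null. In R172H a different weak peak, at 5.21 and 9.58, lay past 1 end in 2 of 3 libraries. The Mx1 end values passed the test (adjusted p = 0.0306, exact permutation test), but the stronger region only partly reached the end window, so they rest on where that window stops. Without any 1 R172H library, R245W replicate 3, or null replicate 1 or 2, Mx1 did not pass (adjusted p from 0.0346 to 0.0697 over the 9 permutation tests). Of the 11 antiviral effectors, 8 passed, against 30.9% of all genes and 49.5% of genes with a called end in all 9 libraries. The roles are small groups, and none was tested as a group.

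**Figure D4:**
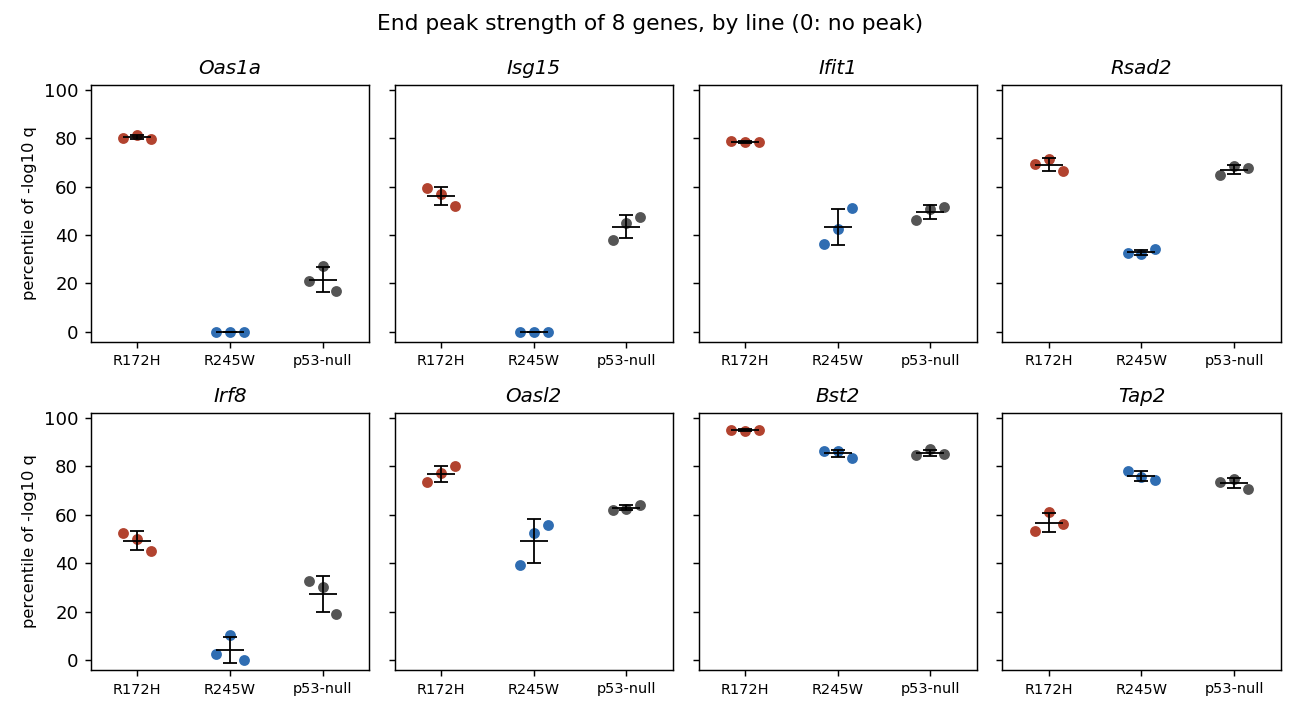
Percentile of -log10 q of the strongest end peak (vertical axis, full lists) for 8 genes in the 3 lines. Points are libraries, and bars are the mean and SD of 3 libraries. Oas1a, Isg15 and Irf8 are lowest in R245W, while Tap2 is lowest in R172H at 53.4 to 61.0.

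Among the RNA sensors all 4 genes passed, against 30.9% of all genes. Each had the R172H line on top (adjusted p = 0.0198 for each, exact permutation test). Ifih1, which encodes MDA5, was at 81.9, 80.4 and 82.2 in R172H, 75.3, 74.4 and 72.0 in R245W, and 61.9, 67.8 and 63.2 in null. Tlr3, the endosomal receptor for double-stranded RNA, was at 86.9, 87.8 and 87.4 in R172H, 83.1, 81.0 and 81.3 in R245W, and 72.3, 73.5 and 74.7 in null. Both genes ran in the order R172H, R245W, null with no overlap. Mavs, the adaptor on mitochondria, kept that order at the top of the scale, with 97.4, 98.2 and 98.4, then 95.2, 95.9 and 94.8, then 92.8, 92.2 and 93.8. Ddx58, which encodes RIG-I, was at 71.3, 72.8 and 68.5 in R172H, 61.0, 63.8 and 62.7 in R245W, and 63.2, 60.7 and 60.1 in null. R172H was above both other lines, while R245W and null overlapped on the full lists, where the sign of their difference turned.

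Ifih1 also held a region inside the gene, on chromosome 2 from 62622839 to 62623604, that was called in R172H alone at 65.4, 68.9 and 68.1. The gene table has no exons, so whether it is intronic is not known. Ddx58 lies on chromosome 4, where only 10.2% of genes were stronger in R172H than in null and 42.3% the reverse, so it differed in the less frequent direction there. With percentiles within the chromosome its adjusted p was 0.0775 (permutation test).

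The DNA-sensing genes did not pass. Mb21d1 (cGAS) was at 73.2, 77.3 and 79.6 in R172H, 68.9, 78.3 and 76.0 in R245W, and 79.4, 79.7 and 77.7 in null (adjusted p = 0.121, exact permutation test). Its lines overlapped on the full lists. Tmem173 (STING) was at 60.6, 57.4 and 55.7 in R172H, 50.3, 53.2 and 51.6 in null, and 40.2, 48.4 and 36.8 in R245W (adjusted p = 0.0603, exact permutation test). Its R245W libraries lay below the other 6, by 20.2 points from null, and it passed on the full lists (adjusted p = 0.0181, permutation test). Tmem173 is on chromosome 18, where 49.9% of all genes were stronger in null than in R245W. With percentiles within the chromosome it passed (adjusted p = 0.0219, permutation test). Tbk1, the kinase that both routes share, was at 92.5, 91.3 and 93.1 in R172H, 92.7, 95.7 and 96.6 in R245W, and 89.1, 85.6 and 85.1 in null. Its null libraries were the lowest (adjusted p = 0.0394, exact permutation test), but it fell short of the threshold without any 1 of 7 libraries, which were all but R245W replicate 1 and null replicate 1 (adjusted p from 0.0346 to 0.102 over the 9 permutation tests). The Tbk1 peak also reaches the nearer edge of the span of the neighbouring gene Xpot.

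Of the 6 transcription factors 5 passed, against 30.9% of all genes, and most were weakest in R245W. Irf1, an activator induced by interferon gamma, was at 96.7, 95.9 and 96.2 in R172H, 93.4, 92.7 and 94.6 in null, and 88.6, 89.4 and 90.5 in R245W. Irf8, best known from myeloid cells, was at 52.6, 50.2 and 45.0 in R172H, 32.9, 30.4 and 19.0 in null, and 2.52, 10.4 and 0 in R245W. Irf9, a DNA-binding partner of STAT2, was at 92.8, 94.5 and 93.0 in R172H, 87.0, 86.4 and 85.5 in null, and 85.3, 81.6 and 85.1 in R245W. All 3 ran in the order R172H, null, R245W without overlap (adjusted p = 0.0198 each, exact permutation test). Irf9 had an adjusted p of 0.0809 when percentiles were taken within the chromosome (permutation test), and its peak also covers the end of Rnf31.

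Irf7, the factor that amplifies interferon production, was at 78.7, 76.4 and 79.6 in R172H, 73.9, 71.4 and 70.5 in null, and 65.4, 70.0 and 61.7 in R245W (adjusted p = 0.0306, exact permutation test). R245W was lowest, and R172H and null overlapped on lists of equal length. Irf3, which acts before interferon is made, was at 92.1, 90.8 and 90.7 in R172H, 91.6, 90.0 and 90.5 in null and 88.0, 87.4 and 89.2 in R245W, and did not pass (adjusted p = 0.0535, exact permutation test). Without R172H replicate 1 it did (adjusted p = 0.0468, permutation test), and on the full lists its adjusted p was 0.0496. Stat2 had the opposite order and a narrow range: 98.5, 98.0 and 97.9 in R245W, 96.0, 96.9 and 96.9 in null, and 95.2, 96.3 and 95.7 in R172H. It passed (adjusted p = 0.0198, exact permutation test), with 2.58 points between R245W and R172H, and on the full lists R172H and null overlapped. It did not pass within the chromosome (adjusted p = 0.0942, permutation test) or without R172H replicate 1 (adjusted p = 0.0545, permutation test).

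The receptor genes also ran against these most frequent orders. Ifnar2, a chain of the type I interferon receptor, was at 88.8, 89.7 and 88.6 in R245W, 79.6, 80.5 and 78.3 in R172H, and 80.6, 78.6 and 79.5 in null. R245W stood above the other lines by 7.62 points from null and 10.1 from R172H (adjusted p = 0.0198, exact permutation test), and the adjusted p was 0.0716 on the full lists (permutation test). In 4 of the 6 other libraries the strongest peak was the one at the far end of the gene, next to Il10rb, so the start peak alone differed more: it was at 76.3, 76.8 and 78.3 in R172H and 79.4, 78.6 and 78.2 in null. Ifnar1, the other chain, was at 95.3, 95.1 and 95.3 in R245W, 91.5, 93.9 and 90.4 in R172H and 89.8, 92.7 and 91.3 in null (adjusted p = 0.145, exact permutation test). On chromosome 16, which holds both, 40.7% of genes were stronger in R245W than in null and 33.3% stronger in R245W than in R172H.

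Tlr4 is the receptor for bacterial lipopolysaccharide. It was at 73.6, 73.6 and 74.0 in R172H, below 78.4, 82.2 and 81.0 in R245W and 78.6, 82.0 and 80.8 in null (adjusted p = 0.0198, exact permutation test). R245W and null overlapped on the full lists, where the adjusted p was 0.0716 (permutation test). With percentiles within its chromosome, 4, it was 0.0715 (permutation test).

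Antigen presentation genes were mostly strong, Tap2 and Nlrc5 being the weaker ones, and 1 of 8 passed, against 30.9% of all genes. Where 1 line stands apart and the other lines overlap, this test can miss the threshold however wide the gap. The count therefore does not mean that the lines were alike. R172H exceeded null without overlap for 5 of the 8 (27.9% of all genes), and the reverse held for 2 (14.4%). B2m, the shared light chain of class I molecules, was at 98.0, 97.9 and 98.2 in R172H, 98.1, 97.7 and 98.6 in R245W, and 92.8, 93.0 and 93.1 in null. The null libraries lay below the other 6, by 4.89 points from R172H and 4.86 from R245W, the mutant lines overlapped, and the adjusted p was 0.0763 (exact permutation test). On chromosome 2, where B2m, Ifih1 and Mavs lie, 48.7% of genes were stronger in R172H than in null and 30.4% stronger in R245W than in null. With percentiles taken within the chromosome, B2m, Tap1, Psmb9 and Tap2 passed as well (adjusted p = 0.0219 each, permutation test).

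H2-D1, a class I heavy chain, was the member that passed on lists of equal length. It was at 92.2, 89.2 and 91.1 in R245W, 86.3, 86.0 and 84.6 in null, and 81.5, 84.3 and 81.2 in R172H, with no overlap on either kind of list (adjusted p = 0.0198, exact permutation test). H2-K1, the other class I heavy chain, was at 88.6, 89.2 and 88.7 in R172H, 89.6, 90.5 and 87.4 in R245W, and 84.1, 85.6 and 84.6 in null (adjusted p = 0.139, exact permutation test). Without R245W replicate 3 the adjusted p was 0.0239 (permutation test). These genes belong to a family of near-identical copies, and the part of read placement was not tested.

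Tap1, a chain of the peptide transporter, and Psmb9, a subunit of the immunoproteasome, start back to back and shared 1 peak. They are therefore 1 measurement, although the counts of members for R172H over null, R245W over null and null lowest include both. The shared peak was at 98.2, 98.7 and 98.3 in R172H, 98.4, 98.7 and 98.4 in R245W, and 97.9, 96.4 and 97.6 in null (adjusted p = 0.0763, exact permutation test). Psmb8, another immunoproteasome subunit, ranged from 88.0 to 90.8 over all 9 libraries, and every pair of lines overlapped. Tap2, the second chain of the transporter, was at 53.4, 61.0 and 56.1 in R172H, 78.3, 75.7 and 74.3 in R245W, and 73.7, 74.7 and 70.8 in null. R172H lay below both other lines (adjusted p = 0.0603, 0.0279 on the full lists and 0.0346 without R245W replicate 1, exact permutation tests), but the peaks of those lines belong to a broad merged region of 3433 bp. When the summit had to lie inside the end window, no R245W library had a peak there. R172H then lay 51.5 points above R245W and 39.9 above null. The direction therefore depends on whether the summit must lie in the window, and the R245W change is a peak no longer counted.

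Nlrc5, the transactivator of class I genes, was at 82.3, 81.7 and 82.2 in R172H, 75.5, 78.3 and 79.0 in R245W, and 78.9, 75.2 and 77.7 in null (adjusted p = 0.0603, exact permutation test). At the other end of the gene a second peak was at 72.9, 75.2 and 75.3 in R245W, 45.9, 35.8 and 24.4 in R172H, and 35.8, 32.8 and 43.4 in null, so the ends differed in which line was highest. Within 20 kb of the gene's span, 3 regions were called in R172H and not in null, and 1 region went the other way. That region, on chromosome 8 from 94458350 to 94459284, was at 67.5, 67.9 and 70.5 in null, 55.5, 57.9 and 51.7 in R245W, and absent in R172H. Cd274, which encodes the checkpoint ligand PD-L1, was at 93.8, 91.1 and 91.0 in R172H, 88.9, 86.6 and 88.3 in R245W, and 83.6, 81.4 and 81.8 in null. Its 3 lines did not overlap (adjusted p = 0.0198, exact permutation test), and R172H exceeded null by 8.81 points. Without null replicate 2 the adjusted p was 0.0526 (permutation test).

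Chromosomes differed between the lines as wholes, and several members sit on those that did. On chromosome 8, which holds Irf8, Tlr3, Bst2 and Nlrc5, 57.5% of genes were stronger in R172H than in null, and on chromosome 19, which holds the Ifit genes and Cd274, 59% were, against 27.9% of all genes. The median R172H minus null difference of genes open in all 9 libraries was 4.65 points on chromosome 8 and 5.40 on chromosome 19. The differences of Ifit1 (26.6), Tlr3 (12.5), Cd274 (8.81) and Bst2 (8.74) were larger than these medians, and those of Ifit2 (4.23) and Nlrc5 (2.7) were not. Irf8 differed by 16 points but was not called in all 9 libraries, as the genes of the medians were. Ifit3 had no end peak. Oas1a, Oasl1 and Oasl2 lie on chromosome 5, where the medians of all 3 pairs were between 0.000767 and 0.437 points. On chromosome 12, which holds Rsad2, 43.6% of genes were stronger in R172H than in R245W, with a median of 3.51 points. The part of these chromosome-wide differences in the members' values was not tested, and the line and its chromosomes cannot be told apart.

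**Figure D5:**
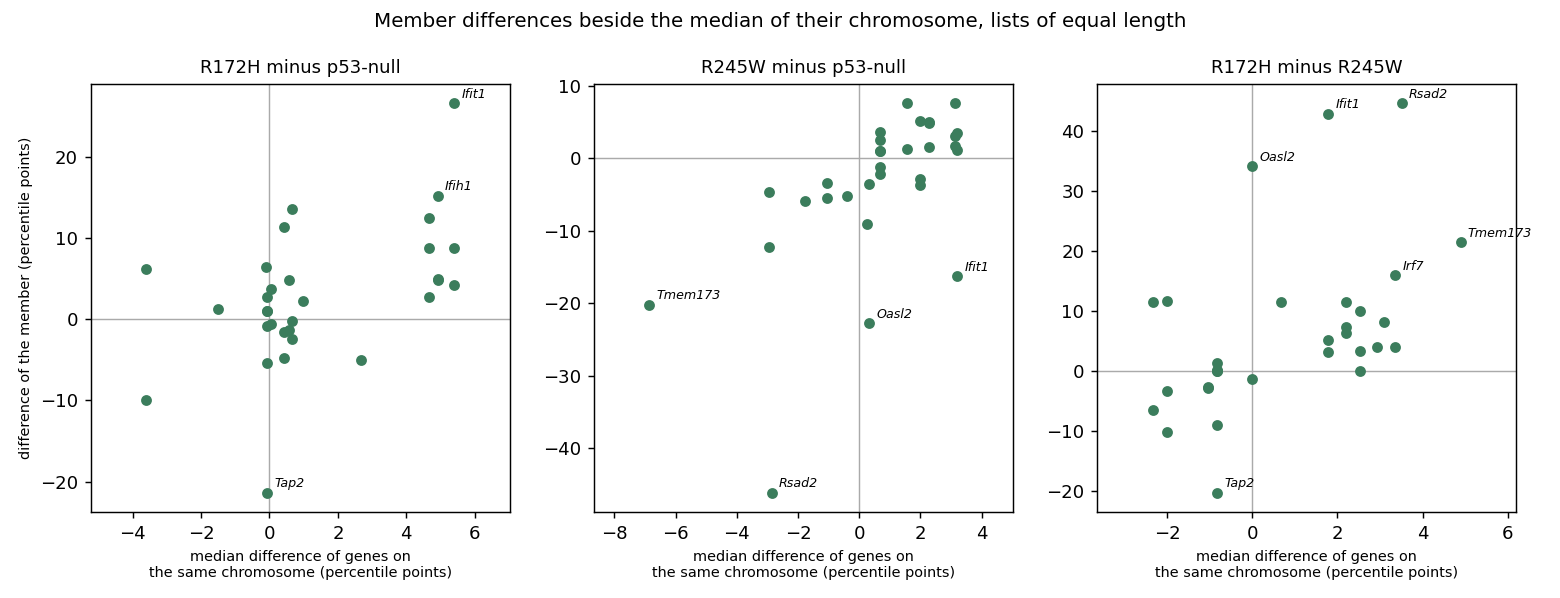
Difference of each of the 31 members with an end peak in all 9 libraries (vertical axis, percentile points on lists of equal length) against the median difference of genes on its chromosome (horizontal axis), for the 3 pairs of lines. Members beyond 15 points are named. Ifit1, Rsad2 and Oasl2 lie 34.2 points or more above 0 for R172H minus R245W, on chromosomes whose medians are below 5 points.

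Regions further from the gene ends were counted from all lists merged where peaks overlapped. The spans of the 37 genes widened by 20 kb held 204 merged regions. Of those, 100 (49%) had a peak in every library, against 29.4% of all 124230 regions. A region with a peak in each R172H library and none in the null line lay near 15 of the 37 genes (38.7% of all genes), and the reverse near 10 (32.4%). For R245W over null the count was 15 (33.5%), and for null over R245W it was 8 (15.5%). For R172H over R245W it was 13 (31.8%), and for R245W over R172H it was 14 (41.5%). The counts rest on lists of different lengths, and on lists of equal length the count for R245W over null was 6. No share of all genes was counted for such regions on lists of equal length.

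The strongest of these regions were at Oas1a, Oas1g, Nlrc5 and Ifih1, described above, and at 2 other places. A region 16510 bp downstream of Stat2, within the Pan2 gene (chromosome 10, 128309363 to 128310721), was called in R245W alone at 75.2, 76.0 and 77.1. A region 17643 bp downstream of Ifnb1 (chromosome 4, 88503475 to 88504382) was called in null alone at 71.8, 66.9 and 65.5. Ifnb1 itself, with no end peak, had 3 other regions within 20 kb, and these were called in all 9 libraries.

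Of the 10 members with an ISRE match, 7 (70%) were stronger in R172H than in R245W, and of the 21 members with a window and no match 10 (47.6%) were. For null over R245W the counts were 6 of 10 (60%) and 7 of 21 (33.3%). For R172H over null they were close, at 6 of 10 (60%) and 12 of 21 (57.1%). For R245W over null they were 3 of 10 (30%) and 9 of 21 (42.9%). These counts are given with no test. Over all tested genes with a window, 22.8% of the 689 with a match and 24.2% of the 16803 without were stronger in R172H than in R245W. For null over R245W the shares were 12.6% and 14.7%, for R172H over null 28.4% and 27.9%, and for R245W over null 23.9% and 24.3%.

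Another 76 genes of the same pathways were counted beside the members. Of these 37 passed the three-line test (48.7%, against 30.9% of all genes), and 64 had a called end in all 9 libraries (84.2%, against 55%). R172H exceeded null for 33 of the 76 (43.4%, against 27.9% of all genes) and the reverse held for 12 (15.8%, against 14.4%). R172H exceeded R245W for 32 (42.1%, against 25%) and R245W exceeded R172H for 21 (27.6%, against 18.2%). R245W exceeded null for 21 (27.6%, against 23.9%) and null exceeded R245W for 21 (27.6%, against 15.5%). The genes with an end called in 1 line of a pair were Cxcl9, Aim2, Ifi47, Ifitm1 and Tlr9. By direction they made up 0 to 3.95% of the 76, against 0.544% to 3.3% of all genes.

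Cxcl9, a chemokine that draws T cells, was at 82.9, 82.2 and 80.4 in R172H and had no end peak in any other library. Ifi47, an interferon-induced GTPase, was at 37.8, 52.5 and 55.1 in R172H alone, and Ifitm1, which blocks viral entry, at 28.0, 26.8 and 30.7 in R172H alone. Aim2, a sensor of cytoplasmic DNA, was at 49.8, 50.7 and 52.5 in R245W alone. Tlr9, the receptor for unmethylated DNA, was at 22.5, 23.9 and 24.2 in R245W, at 0.64, 10.1 and 0 in R172H, and had no peak in null. Each of these has the adjusted p of 0.0763 (exact permutation test).

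The labelled origin was checked against marker genes. Of 10 osteoblast lineage markers, 7 had a called end in all 9 libraries, including Runx2 and Sp7, and Bglap, Ibsp and Pth1r had none in any. Of 10 blood cell markers, 3 to 5 were called per library, with summed percentiles of 208 to 242 in R172H, 213 to 244 in R245W and 151 to 214 in null. Ptprc, Adgre1, Itgam and Tyrobp were at 0 in all 9 libraries, while Spi1, at 71.6 to 90.1, Cd68 and Cd79a were called in all 9. Csf1r was called in R245W alone, at 29.8 to 46.3, and Cd3e in R172H alone, at 15 to 35.3. For endothelium, 1 to 2 of 5 markers were called, with Pecam1, Cdh5 and Tek at 0. Kdr was at 72.1 to 82.3 in the mutant lines and 24.4 to 35 in null, and Cldn5 was highest in R245W, at 29.4 to 40.6. The summed percentiles were 80.5 to 90.8 in R172H, 103 to 113 in R245W and 24.4 to 37.4 in null. For epithelium, 1 to 2 of 4 were called, with Krt18 and Cdh1 at 0, Krt8 called in all 9 libraries and Epcam highest in R245W, at 29.7 to 37.3. The summed percentiles were 41.3 to 55.1, 82.2 to 92.5 and 23.9 to 31.4 in the same order. The part of these differences in the members' values was not tested. Accessibility at a gene end is not expression, and no RNA was analysed here.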

How the data were processed

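ATAC-seq peak lists of 9 libraries, 3 per line, were used. Each library has its own list, without pooling. The submitters' processing notes name MACS2 2.1.0, Bowtie 1.1.2, Trimmomatic 0.33, bcl2fastq 2.17, deepTools and build GRCm38. Settings, filters and a Tn5 shift are not given there, and the read depth is unknown. The value used was the -log10 q-value that the authors deposited for each peak, which is the authors' own and served only to rank peaks within a list. The lists held 65199 to 79424 peaks, and the lowest -log10 q was 1.3 to 1.42.

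Gene spans came from RefSeq (GRCm38.p6). The strongest peak overlapping either gene end, widened by 1000 bp, gave a percentile per library, and 0 where there was none. Tests and differences used the 65199 strongest peaks of each list. Merged regions overlapped by 1 bp or more. The exact permutation test over 280 partitions was one-sided on the between-line sum of squares and adjusted over 21889 genes. It was tested on simulated data. All 37 genes are named, and of 76 other pathway genes those with an end called in 1 line of a pair. Line-specific regions named are the 6 with the highest lowest percentile in their best line. Region details of Mx1, the Agrn peak and the Oas1 interval were chosen after their values were seen. The genes and lists were chosen with earlier results of these data known. Alternatives covered list length, windows, a -log10 q minimum of 5, summit position, chromosome percentiles, fewer genes, region distance, leaving out libraries singly and the replicate block. Scripts ran in Python 3.11.15 (matplotlib 3.10.9, pandas 2.3.3, numpy 2.4.6).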

Additional observations from a re-analysis of the deposited data

How the results depend on the processing

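Leaving out 1 library at a time gave 18 to 21 members past the three-line test. The losses were among Tbk1, Stat2, Ifit2, Mx1, Mx2 and Cd274. Counts of members with non-overlapping strength were 20 to 21 for R172H over null and 7 to 9 for the reverse. They were 12 to 14 for R245W over null and 15 to 17 for the reverse. For R172H over R245W they were 20 to 21, and 7 to 9 for the reverse. Leaving out a library can only keep or raise such a count, because fewer values remain to overlap. These ranges therefore say nothing about stability.

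The replicate block, which regroups libraries only within replicate numbers (36 partitions, an exact permutation test with smallest p 0.0278), gave 0 calls among members and 0 among all genes. At an unadjusted p under 0.05 it had 21 members and 5657 of all genes, and its smallest adjusted p was 0.107, so its count says nothing about stability. Same-numbered libraries did not deviate together (correlations from -0.0356 to 0.0182), so the numbers were not taken as pairs.

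With full lists and with percentiles within the chromosome, null over R172H fell to 3 and 3 members (11.4% and 9.14% of all genes). Within the chromosome, null over R245W fell to 8 members (7.57% of all genes). An end called in null or in R245W and not in R172H was found for 1 gene, Mx1, in lists of equal length and at a -log10 q of at least 5. The shares of all genes were 1.67% and 2.64% in lists of equal length, and 1.47% and 2.82% at that minimum. In lists of equal length null over R245W and R172H over R245W each had 3 genes (0.959% and 1.92% of all genes), with Irf8 added to Isg15 and Oas1a. With an end window of 2000 bp, null over R245W and R172H over R245W each had 1 gene (0.544% and 1.82% of all genes). Line-specific regions overlapping the gene span alone were found for 5 members for R172H over null, 5 for the reverse, and 4 in each other direction. Within 50 kb the counts were 23 for null over R172H, 25 for R245W over null, 17 for null over R245W, 21 for R172H over R245W and 24 for R245W over R172H. For R245W over null the count within 20 kb was 6 in lists of equal length and 9 at a -log10 q of at least 5. These alternative region counts were made over members only, with no share of all genes. A wider span can only add regions to any gene, so they do not set the members apart from other genes.

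The 81 member differences with non-overlapping libraries in the main setting were followed, and 79 to 81 kept their direction under each alternative. Leaving out a library cannot turn such a difference, so only the other alternatives bear on direction. With the summit required in the end window, the Tap2 difference became -39.9 for null over R172H and -51.5 for R245W over R172H. In that setting no R245W library had a Tap2 end peak. Ddx58, null over R245W, became -1.13 on full lists and -0.388 within the chromosome. Tlr4, null over R245W, became -0.0753 and -0.569. Isg15, R172H over R245W, became -4.3 with a 2000 bp window. The cause was not tested. Over all genes, 6771 passed, and 4969 to 8637 under the alternatives other than the block, where the highest came from testing 14702 genes.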
